A study of Mus musculus with 8 samples.

Results

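The miR-34 family was followed in the footpad skin of mouse embryos, where the eccrine sweat glands arise, on arrays that carry probes for 1881 mouse miRNAs. The members are the 4 family miRNAs mmu-miR-34a-5p, mmu-miR-34b-5p, mmu-miR-34b-3p and mmu-miR-34c-5p, chosen by name, with all probes of each; mmu, for mouse, is left out of the names below. Of these 4 only miR-34a-5p was bright enough to be tested, as 1 of 384 miRNAs that were. It fell in Dicer conditional knockout (cKO) footpads to 30.4% of the wild-type level, while miR-34b-5p, miR-34b-3p and miR-34c-5p lay at or below the limit of detection in both genotypes.

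The study compared wild-type with Dicer cKO embryos of the C57BL6 background at 2 embryonic stages 1 day apart, E16.5 and E17.5 (the number gives the embryonic day). Dicer is the endonuclease that frees mature miRNAs from their precursor hairpins. Which cells lost Dicer, and by which Cre line, is not given in the labels, which name no allele beyond the knockout; Dicer mRNA was not measured. Each of the 4 groups has 2 single-colour arrays, and each array carries RNA pooled from the footpads of 3 to 5 embryos, so that p-values rest on the spread of pools, not of embryos.

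Between 278 and 382 miRNAs were detected per array, with the fewest on replicate 2 at E16.5 of both genotypes (278 in wild type and 280 in cKO). Detection on an array required that over 50% of the spots of the brightest probe of a miRNA were well above background, and testing required detection on the pair of arrays of some group. All arrays lie on 1 slide, with each group in a column of its own, so that slide position and group cannot be told apart. Markers of skin were present: 7 of 7 epidermal and 8 of 8 dermal mesenchyme miRNAs were bright enough to test, as were 5 of 5 skeletal muscle, 2 of 2 endothelial, 5 of 6 blood and 3 of 5 nerve and glia miRNAs.

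The family is linked to p53. This transcription factor binds near Mir34a and near the joint locus of Mir34b and Mir34c and raises their transcription after DNA damage and other stress. The mature miRNAs in turn lower transcripts that drive the cell cycle, block apoptosis or promote epithelial-to-mesenchymal transition. In keratinocytes the p53 relative p63 holds miR-34a and miR-34c down, and miR-34b and miR-34c are best known from multiciliated epithelia, where they occur together with the miR-449 miRNAs of the same seed.

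The mature sequences below show why these miRNAs are treated as a family. RefSeq (GRCm38.p6) held a mature entry for 3 of the 4 members, and capitals mark the seed, bases 2 to 8, which sets most of the target choice. The 5p strands of miR-34a and miR-34b share the seed GGCAGUG with miR-449a-5p and miR-449c-5p, and these were the 4 miRNAs with that seed among the 1608 array miRNAs that had a RefSeq entry. The 3p strands from the other side of the hairpins carry other seeds.
miR-34a-5p: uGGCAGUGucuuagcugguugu
miR-34b-5p: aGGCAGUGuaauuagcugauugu
miR-449a-5p: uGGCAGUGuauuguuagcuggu
miR-449c-5p: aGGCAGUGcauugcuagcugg
miR-34b-3p: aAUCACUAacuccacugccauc
miR-34a-3p: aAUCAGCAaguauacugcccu

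Aligned end to end, miR-34a-5p and miR-34b-5p have the same base in 19 of 23 columns. miR-34a-5p matches miR-449a-5p in 17 of 23 columns and miR-449c-5p in 15 of 22.

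The hairpin of Mir34a (102 bases, RefSeq GRCm38.p6, plus strand) is shown because its arms gave different readings on these arrays. Capitals mark miR-34a-5p, at bases 20 to 41, and miR-34a-3p, at bases 64 to 84.
Mir34a: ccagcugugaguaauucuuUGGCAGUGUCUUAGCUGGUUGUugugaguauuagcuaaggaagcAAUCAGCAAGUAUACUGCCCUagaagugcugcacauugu

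The probes are the part of each miRNA that the array can see. The brightest probe of miR-34a-5p pairs with bases 3 to 22 of the miRNA, including 6 bases of the seed, and the files place it on mm9 at chr4:149442585-149442603 (this and the other listed probe intervals span 1 base fewer than the probe). In the RefSeq annotation of GRCm38.p6, Mir34a lies within the span of no other gene, between Gm13067 and Gpr157. Mir34c and Mir34b are next to each other on chromosome 9, inside the spans of Btg4 and Hoatz, and the files place the miR-34c-5p probe on mm9 at chr9:50911155-50911173. The longer probes of miR-34b-5p and miR-34c-5p are close to each other: over the 20 bases they share they are identical at 18, and the capitals mark the differences, A1G and T13C from the miR-34b-5p to the miR-34c-5p probe, counted from the 5′ end of the probe. Cross-hybridisation between these probes was not tested.
miR-34a-5p probe: acaaccagctaagacactgc
miR-34b-5p probe: AcaatcagctaaTtacactgcc
miR-34c-5p probe: GcaatcagctaaCtacactg

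The first comparison asked whether the member that could be tested, miR-34a-5p, the most widely expressed of the family, differed between the genotypes. Its brightest probe gave background-subtracted signals, in arbitrary linear units before any scaling, of 220 and 156 on the E16.5 wild-type arrays and of 52.4 and 52.2 on the E16.5 cKO arrays. The E17.5 wild-type arrays read 288 and 305, and the E17.5 cKO arrays 61.2 and 65.3. Every cKO array was below every wild-type array, as for 3.14% of all 1881 miRNAs on this unscaled scale. The 1881 include 1497 too dim to test, so that the share among the 384 tested may be higher. All 15 spots of the brightest miR-34a-5p probe were well above background on each of the 8 arrays.

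Scaling brought the wild-type pools close together. The signals of an array were set relative to its 75th percentile, taken over those 474 probes that were detected on every array, and the log2 was taken, so that a level of 0 stands for that percentile. On this scale miR-34a-5p was at −0.85 and −0.87 in wild type at E16.5, at −0.81 and −0.77 in wild type at E17.5, at −2.46 and −2.46 in cKO at E16.5 and at −2.74 and −2.52 in cKO at E17.5. The genotypes did not overlap at either stage, and the widest gap between replicate arrays was in cKO at E17.5.

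**Figure D1:**
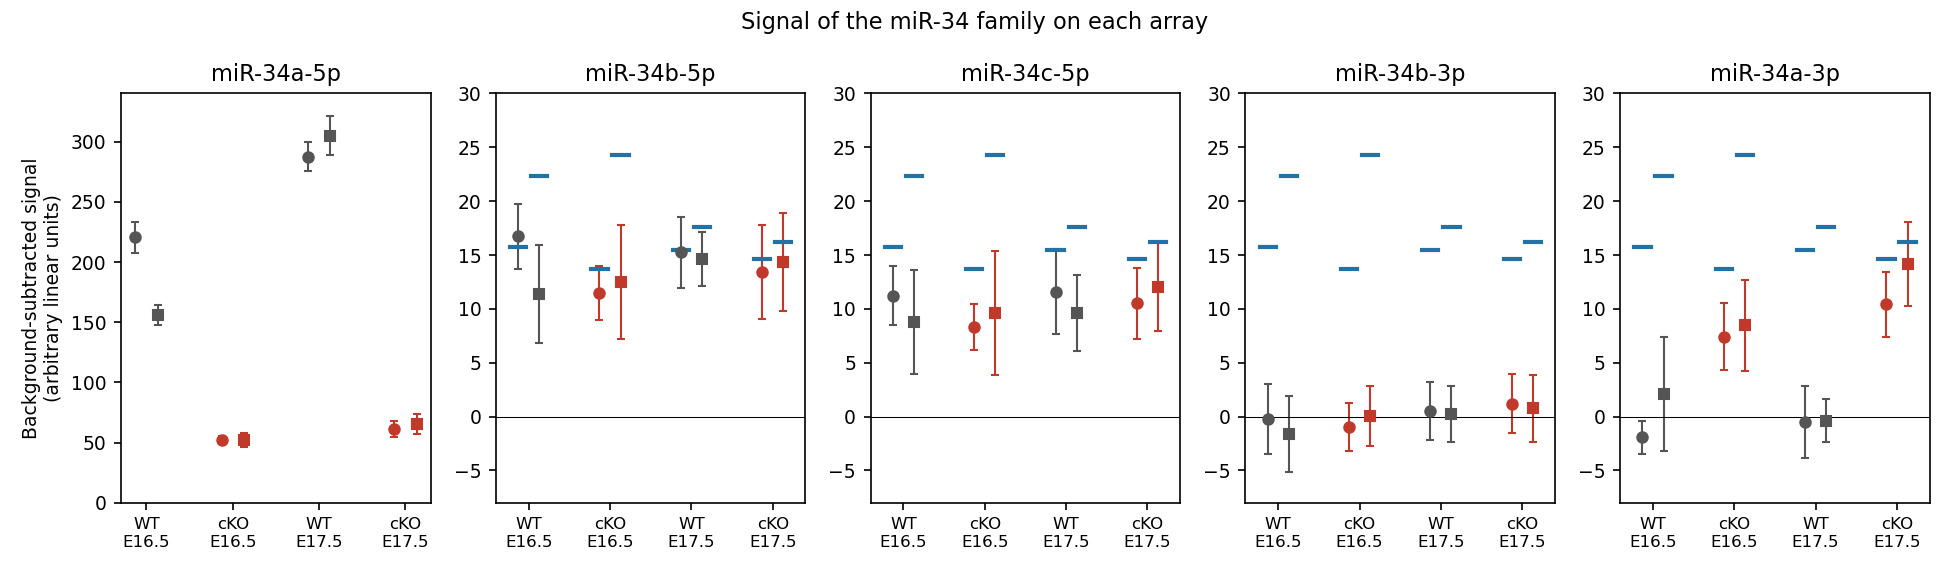
Background-subtracted signal (arbitrary linear units, unscaled) of the brightest probe of each family member and of the other Mir34a strand, miR-34a-3p, on each array, with circles for replicate 1 and squares for replicate 2, grey for wild type (WT) and red for cKO; bars are the SD over the spots of the probe. Blue ticks mark the lowest signal among detected probes on that array; miR-34a-5p has its own axis and runs from 52.2 to 305, whereas the other miRNAs reach at most 16.8 and lie below or near the ticks.

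Over both stages miR-34a-5p fell by 1.72 in log2 units, with an SE of 0.0525 from 4 arrays of each genotype (limma adjusted p = 2.26e-05), or 3.29-fold, with a 95% confidence interval of −1.85 to −1.59. It was the only family member called, 1 of 1 tested; of all 384 tested miRNAs 14.6% were called lower and 45.6% higher. That balance depended on the scaling: increases were 75.8% of the calls here but 10.2% with scaling on all probes, 9.52% unscaled and 4.02% relative to the positive control probes. All tested miRNAs together had a median change of 0.16, and miR-34a-5p stood at −1.88 from that median. The shorter of its 2 probes gave −1.76 ± 0.0623 (limma adjusted p = 3.04e-05).

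At E16.5 miR-34a-5p fell by 1.60 ± 0.0742 (here and below ± is the SE; limma adjusted p = 1.56e-04 with 2 arrays of each genotype), or 3.03-fold, where 15.1% of all tested miRNAs were called lower and 35.4% higher. At E17.5 it fell by 1.84 ± 0.0742 (limma adjusted p = 1.17e-04), or 3.58-fold, where 10.2% were called lower and 35.9% higher. The balance of all calls turned with the scaling at each stage: with scaling on all probes, unscaled and with control-probe scaling, 4, 4 and 8 miRNAs were higher against 18, 17 and 99 lower at E16.5, and 4, 4 and 3 higher against 32, 47 and 190 lower at E17.5. With median scaling increases were 57.3% of the calls at E17.5, against 78.0% in the main analysis. The E16.5 cKO arrays thus kept 33% of the wild-type level and the E17.5 cKO arrays 28%.

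The next comparison asked whether the loss of miR-34a-5p changed between the stages. The E17.5 change was lower than the E16.5 change by 0.24 ± 0.105 on the log2 scale, which did not pass (limma adjusted p = 0.210, 95% confidence interval −0.51 to 0.03); of all tested miRNAs 0.781% were called lower and 0.781% higher in this contrast. With median scaling and unscaled, all 3 calls of this contrast were lower, as were all 5 with control-probe scaling. The interval includes 0, so that a growing effect was not shown, and neither was an equal effect at the stages.

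Within a genotype the level of miR-34a-5p did not pass for a difference between the stages under the main scaling. Between E16.5 and E17.5 the wild-type level differed by 0.07 ± 0.0742 (limma adjusted p = 0.571), with a 95% confidence interval of −0.12 to 0.26. In this contrast 10.7% of all tested miRNAs were called lower and 4.17% higher, so that increases were 28.1% of the calls; they were 76.5% with scaling on all probes, 71.1% with median scaling, 52.3% with quantile scaling, 97.9% unscaled and 91.2% with control-probe scaling. The wild-type stage difference depended on the scaling: unscaled, where the E17.5 wild-type arrays were brighter throughout (the median miRNA differed by 0.47), it was 0.68 (limma adjusted p = 0.0389), and scaled on the positive control probes it was 0.31 (limma adjusted p = 0.0298).

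In cKO the miR-34a-5p level differed by −0.17 ± 0.0742 between the stages (limma adjusted p = 0.132), with a 95% confidence interval of −0.36 to 0.02, where 20.1% of all tested miRNAs were called lower and 15.1% higher. Increases were 43.0% of these calls, 31.5% with control-probe scaling, 62.0% with quantile scaling and 82.1% unscaled. The direction of the miR-34a-5p difference depended on the scaling: it was 0.10 with scaling on all probes and 0.27 unscaled (limma adjusted p = 0.736 and 0.304). With normexp background correction it passed at −0.23 (limma adjusted p = 0.0101). The estimate also leans on replicate 1 at E17.5, the lower of that pair. Without replicate 2 the difference was −0.28 (limma adjusted p = 0.0348) and without replicate 1 it was −0.06 (limma adjusted p = 0.325).

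The fall of miR-34a-5p did not rest on the scaling of the arrays or on a single pool. It was called lower in 22 of 22 other settings over both stages, in 23 of 23 at E16.5 and in 23 of 23 at E17.5. Over both stages its change ran from −2.11 with scaling on the positive control probes to −1.05 with normexp background correction, whose offset of 50 added to each signal is close to the cKO signals themselves and compresses the difference. Set against the median miRNA of the same fit it lay between −1.96 and −1.83 under all 6 scalings. Leaving out each array in turn gave −1.77 to −1.67.

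**Figure D2:**
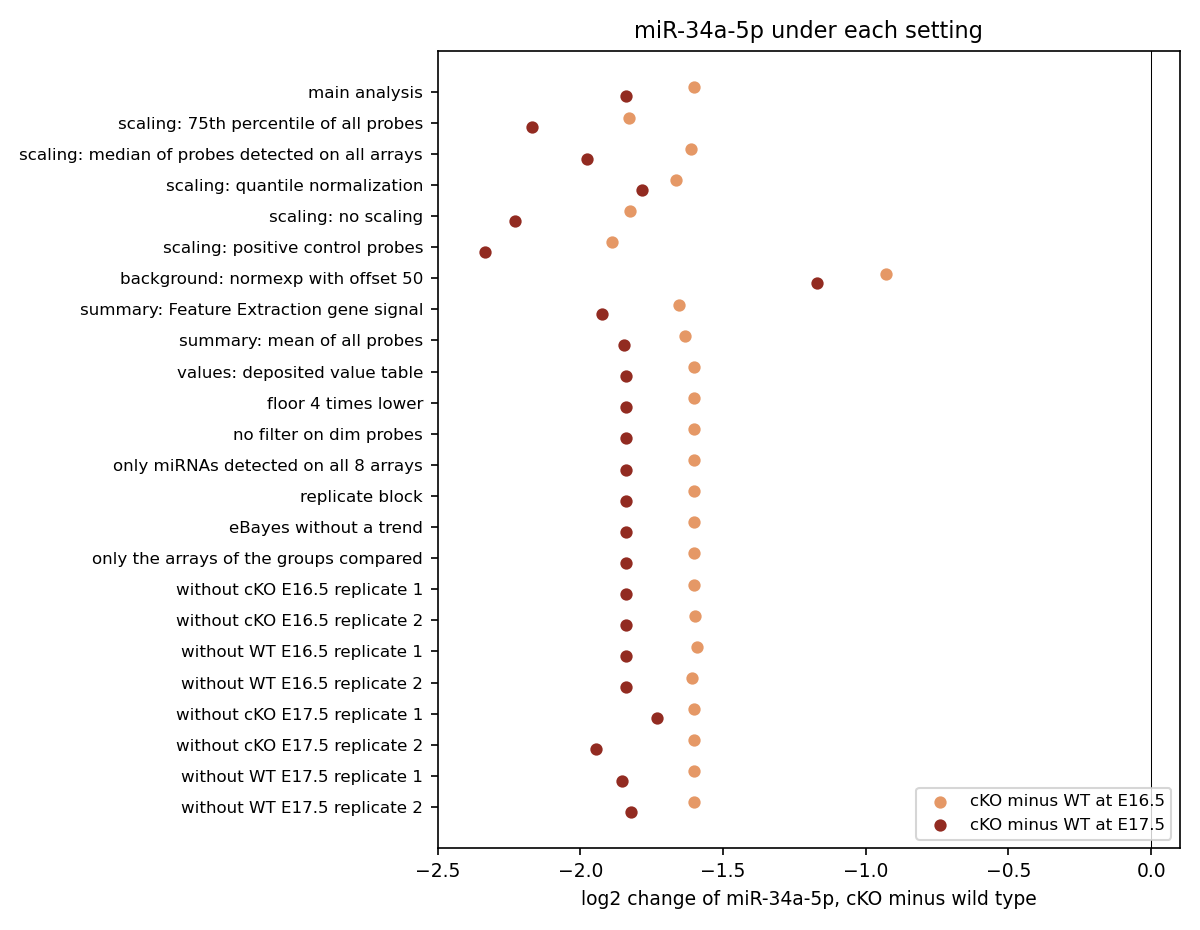
log2 change of miR-34a-5p, cKO minus wild type, at E16.5 (light) and E17.5 (dark) in the main analysis and under each other setting; a point left of 0 is a lower level in cKO. All points lie between −2.33 and −0.93, and the points nearest 0 at each stage are those of normexp background correction with an offset of 50.

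miR-34b-5p, which shares the miR-34a-5p seed and comes from the other p53-responsive locus, was near background. Its brightest probe gave unscaled signals of 16.8 and 11.4 on the E16.5 wild-type arrays, with 11.5 and 12.5 for cKO. The E17.5 arrays read 15.3 and 14.6 for wild type, with 13.4 and 14.3 for cKO. The genotypes overlapped, and the miRNA was detected on 1 of 8 arrays, replicate 1 of wild type at E16.5, where 8 of 15 spots were well above background. The mean cKO signal differed from wild type by −1.57 (two-sided exact permutation p = 0.257, 70 arrangements), and after scaling the sign turned (exact permutation p = 0.400), so that no direction can be given.

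miR-34c-5p, made from the same locus as miR-34b-5p, was detected on 0 of 8 arrays, with E16.5 signals of 11.2 and 8.77 for wild type, against 8.30 and 9.60 for cKO. The E17.5 signals were 11.6 and 9.63 for wild type, against 10.5 and 12.1 for cKO. The genotypes overlapped at both stages. The cKO mean differed from wild type by −0.185 (two-sided exact permutation p = 0.829), a sign that also turned with scaling (exact permutation p = 0.171), and the level was not detectable at this signal rather than shown to be absent.

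miR-34b-3p, the other strand of the Mir34b hairpin, gave signals between −1.62 and 1.21 over the 8 arrays, with 0 arrays detected. Its cKO and wild-type signals overlapped (difference 0.519, two-sided exact permutation p = 0.457). With its shorter probe the 4 cKO signals, −0.339 to 0.444, lay above the 4 wild-type signals, −1.94 to −1.15 (exact permutation p = 0.0286, the smallest that 4 against 4 arrays can give), but on both sides these are within 2 units of 0. By their brightest probe, 2.47% of the 1497 miRNAs too dim to test had all cKO signals above all wild-type signals. For comparison, the mean of the negative control spots ran from 2.56 to 4.79 per array.

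The scanner software's own call per miRNA, which combines the probes, was more generous to the weak members. It called miR-34b-5p detected on 6 of 8 arrays, miR-34c-5p on 4 and miR-34b-3p on 0, with no array set that separated the genotypes: miR-34b-5p was called on 3 arrays of each genotype and miR-34c-5p on 2 of each. In a fit of that combined signal the change over both stages was 0.06 ± 0.268 for miR-34b-5p (limma adjusted p = 0.915) and 0.01 ± 0.0134 for miR-34c-5p (limma adjusted p = 0.479), with undetected arrays set at the floor. The same fit put miR-34a-5p at −1.79 ± 0.0632 (limma adjusted p = 1.41e-04).

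The miRNAs of the miR-449 family, which share the miR-34a-5p seed, were not detected in either genotype. miR-449a-5p gave 4.20 to 6.34 in wild type and 3.30 to 6.80 in cKO, and miR-449c-5p gave −2.79 to 1.63 and −1.04 to 0.645, each with 0 of 8 arrays detected. miR-449b, for which the array has probes as well, gave −0.324 to 1.73 and −3.08 to 1.20, also with 0 arrays detected. miR-34c-3p was between −3.95 and 0.164. The genotypes overlapped for each of these 4 miRNAs.

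The other strand of the Mir34a hairpin, miR-34a-3p, which is no member and is usually the scarcer strand, read in the opposite direction from miR-34a-5p. Its longer probe pairs with bases 5 to 21, is placed on mm9 at chr4:149442631-149442646 and read −1.93 and 2.07 on the E16.5 wild-type arrays, against 7.42 and 8.46 for cKO. The E17.5 arrays read −0.478 and −0.374 for wild type, against 10.4 and 14.2 for cKO. All 4 cKO arrays were above all 4 wild-type arrays, yet none reached detection: at most 2 of 14 spots were well above background, on replicate 2 of cKO at E17.5. The scanner software's combined call marked miR-34a-3p as detected on the 2 E17.5 cKO arrays and on none of the others. In the fit of that combined signal its change over both stages was 0.07 ± 0.0649, which did not pass (limma adjusted p = 0.455). At E17.5 it was 0.14 ± 0.0917 (limma adjusted p = 0.347). Undetected arrays were set at the floor in that fit.

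The miR-34a-3p difference between the mean signals was 10.3 units (two-sided exact permutation p = 0.0286 over 70 arrangements and 0.0556 within stage over 36, in each case the smallest possible). Adjusted over the 8 dim miRNAs compared in this way (Benjamini-Hochberg), the permutation p was 0.229, which does not pass. A lone miRNA with the smallest possible p could not pass this adjustment, so that it cannot decide on the difference. Of the 1497 miRNAs too dim to test, 2.47% had all cKO signals above all wild-type signals (4.94% after scaling), and the miR-34a-3p difference was at position 2 from the top among the 1497. Its shorter probe had the same order, with cKO signals from 0.0108 to 5.94 and wild-type signals from −1.43 to −0.218. The level of the negative controls bears on how far these signals can be read: the 95th percentile of negative control spots was 8.13 and 9.33 on the E16.5 cKO arrays, above the miR-34a-3p signals there, and 9.94 and 10.3 on the E17.5 cKO arrays, below them.

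The position of miR-34a-5p among all tested miRNAs was then examined. Ordered by the change over both stages it stood at position 11 of 384 from the lowest, between miR-182-5p, a sensory and epithelial miRNA of the miR-183 cluster (−1.76 ± 0.0966, limma adjusted p = 1.27e-04), and miR-183-5p of the same cluster (−1.54 ± 0.0163, limma adjusted p = 7.60e-07). The small SE of miR-183-5p has a reason in the fit: the miRNA was detected on 4 of 8 arrays only, and its cKO levels were set at the floor. The 10 miRNAs that fell further than miR-34a-5p were the 7 members of the epidermal list, miR-203-5p, miR-31-5p and miR-182-5p.

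**Figure D3:**
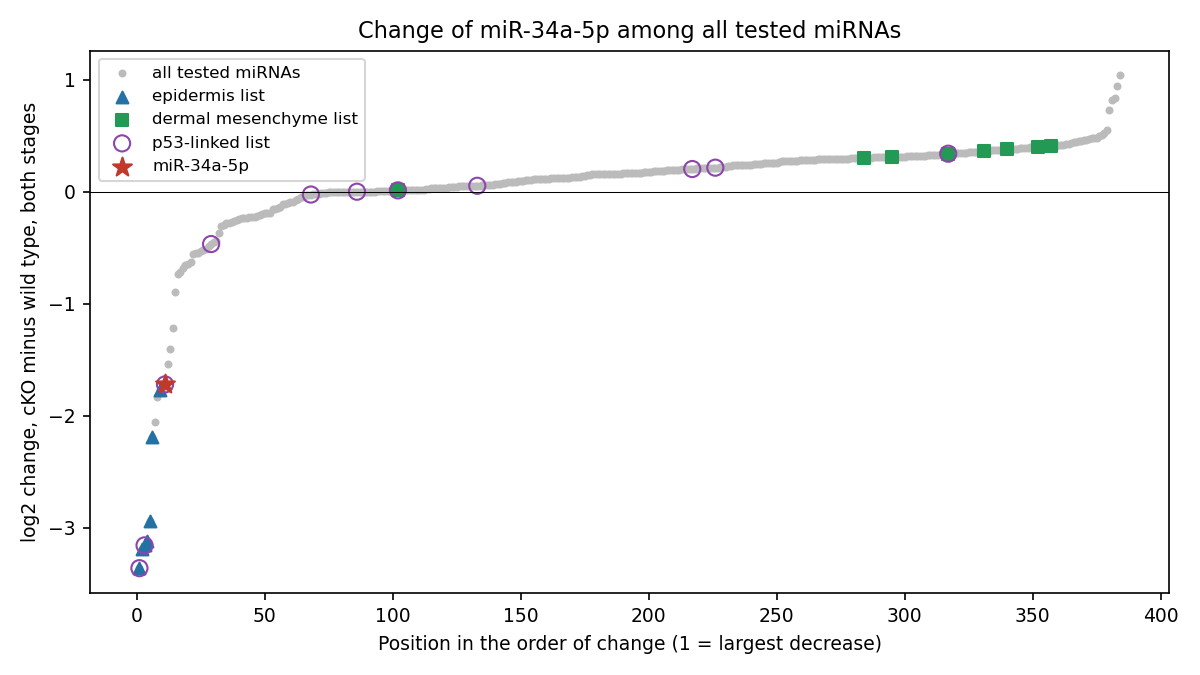
Change over both stages (log2, cKO minus wild type) of the 384 tested miRNAs against their position from the largest decrease, with the epidermal, dermal mesenchyme and p53-linked lists marked. miR-34a-5p (star, −1.72) is at position 11, after all 7 epidermal miRNAs, of which the least reduced, miR-200b-3p, is at position 9, while most p53-linked miRNAs lie near 0 under the main scaling.

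The miRNAs whose profile over the 8 arrays was most like that of miR-34a-5p were its neighbours in the order of change. Likeness was the root mean square difference of log2 levels after each miRNA was centred on its own mean. miR-200b-3p, which restrains epithelial-to-mesenchymal transition, was nearest at 0.0631 (Pearson r = 0.998 over 8 arrays), followed by miR-182-5p at 0.0769 (r = 0.997). miR-183-5p at 0.151, miR-31-5p, known to favour the proliferation of keratinocytes, at 0.157 and miR-96-5p, the third miR-183 cluster member, at 0.176 came next. These correlations describe 8 shared arrays that fall into 2 genotypes and share 1 scaling, so that any miRNA with a large fall scores high. The likeness measure largely follows the size of the fall and is no second finding. The 5 stood at positions 8, 9, 10, 12 and 13 in the order of change. miR-200a-3p, with a larger fall (−2.19), was at position 7 for likeness, although its r was 0.9997.

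**Figure D4:**
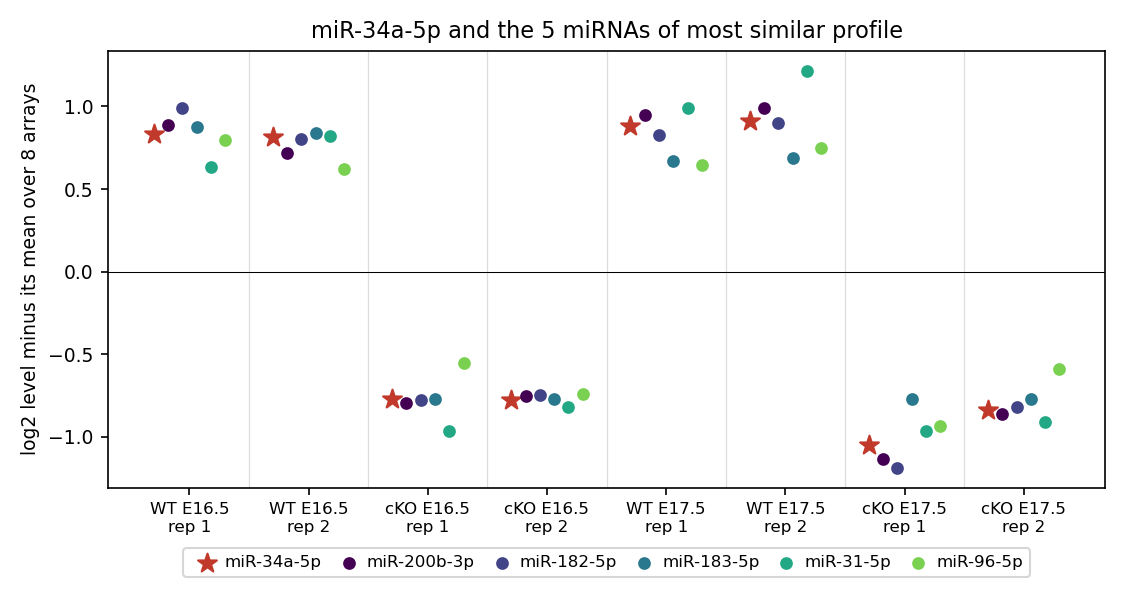
log2 level of miR-34a-5p (star) and of the 5 miRNAs of most similar profile on each array, each minus its own mean over the 8 arrays. On every wild-type array all 6 miRNAs are above 0 and on every cKO array all are below; miR-183-5p and miR-31-5p were not detected on all arrays and partly lie at the floor.

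As the tissue is a mixture, the fall of miR-34a-5p was set beside markers of its cell types, and in such bulk samples fewer cells of a type and less of the miRNA per cell cannot be told apart. Of the epidermal list 7 of 7 members were called lower, where 14.6% of all tested miRNAs were. The list ran from −3.36 for miR-200c-3p to −1.77 for miR-200b-3p, with a median of −3.12 against 0.16 for all tested miRNAs. Its summed scaled level was 26.3 to 31.2 on wild-type arrays and 2.58 to 4.01 on cKO arrays. Of its 7 members 5 were detected on all 8 arrays, and miR-200c-3p and miR-429-3p on 7 each. A cKO level set at the floor would make the fall of such a miRNA look smaller. The part of these markers in the fall of miR-34a-5p was not tested.

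The ratio of miR-34a-5p to the epidermal miRNAs was taken within each array, where the scaling bears on it little: the genotype difference was 1.09 to 1.16 under all 6 scalings. The log2 level of miR-34a-5p minus the mean of the epidermal list was −1.61 to −1.47 on the 4 wild-type arrays and −0.492 to −0.291 on the 4 cKO arrays, so that the groups did not overlap. Relative to the epidermal list it was 1.10 higher in cKO, or 2.14-fold (two-sided exact permutation p = 0.0286 over 70 arrangements and 0.0556 within stage, the smallest possible in each case). miR-34a-5p thus fell by less than the mean of these 7 miRNAs on every scale, by 0.92 to 1.16 over the 18 other settings tried.

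The dermal mesenchyme list gave the opposite picture under the main scaling. Its summed scaled level was 48.7 to 55.6 on wild-type arrays and 63.9 to 69.6 on cKO arrays. Here 7 of 8 members were called higher, where 45.6% of all tested miRNAs were. With median scaling 7 were higher and with quantile scaling 5. With scaling on all probes, unscaled and with control-probe scaling 0 were higher, and 1 was lower with the last. Under the main scaling members of the skeletal muscle (5 of 5), endothelial (2 of 2), blood (3 of 5) and nerve and glia (1 of 3) lists were also called higher. Relative to the mean of this list miR-34a-5p changed by −2.03 in cKO, or 4.09-fold (two-sided exact permutation p = 0.0286 over 70 arrangements and 0.0556 within stage). As miR-34a-5p alone already separated the genotypes, this p is no second finding. Its log2 level minus that mean was −1.90 to −1.63 on wild-type arrays and −4.0 to −3.69 on cKO arrays. The fall of miR-34a-5p is therefore between the mean fall of the epidermal list and the mean change of the mesenchymal list, as measured within the same arrays. This does not hold against each epidermal miRNA. Over both stages miR-200b-3p was at −1.77 ± 0.0747, close to miR-34a-5p at −1.72 ± 0.0525. At E16.5 miR-200b-3p was at −1.58 ± 0.106 and miR-34a-5p at −1.60 ± 0.0742.

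miR-34a-5p is 1 of 16 miRNAs listed as linked to p53, by p53-driven transcription or p53-aided processing. Of these, 15 had probes (none was named miR-605-5p) and 11 were tested; miR-34b-5p, miR-34b-3p, miR-34c-5p and miR-215-5p were too dim. Under the main scaling 4 of the 11 were called lower, 3 higher and 4 did not pass. Among the last, miR-192-5p was set at the floor on every array and could not have been called. Of all tested miRNAs 14.6% were called lower and 45.6% higher. The list had a median change of 0 against 0.16 for all tested miRNAs. This 0 is the value of miR-192-5p at the floor, so that the median is not a measured absence of change.

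The p53-linked miRNAs called lower were miR-34a-5p, miR-107-3p, which lies in an intron of Pank1 and is raised by p53 (−0.47 ± 0.0356, limma adjusted p = 3.41e-04), and the pair miR-200c-3p (−3.36 ± 0.109) and miR-141-3p (−3.16 ± 0.0981), which p53 activates in epithelial cells and which are also in the epidermal list. Each of these 4 was called lower under all 6 scalings. Outside this pair, miR-34a-5p had the largest fall in the list.

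The p53-linked miRNAs called higher were miR-145a-5p, an miRNA of smooth muscle and fibroblasts that p53 raises (0.34, limma adjusted p = 0.00533), and the cell cycle restraining pair miR-15a-5p (0.21, limma adjusted p = 0.00311) and miR-16-5p (0.20, limma adjusted p = 0.00888). Their sign depends on the scaling: with control-probe scaling miR-145a-5p was at −0.05, miR-15a-5p at −0.18 and miR-16-5p at −0.19, and the latter pair was then called lower. Over both stages miR-143-3p was at 0.01, miR-22-3p at 0.05, miR-194-5p at −0.03 and miR-192-5p at 0, the last at the floor in every group. The members thus differed in sign under the main scaling. Scaled on the control probes, 9 of the 11 were called lower and none higher, with miR-145a-5p and miR-192-5p not passing. Of all tested miRNAs 167 were then called lower and 7 higher, so that the turn was not particular to this list. The 9 include miR-194-5p at −0.42, miR-143-3p at −0.38 and miR-22-3p at −0.34.

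At E16.5, 5 of the 11 p53-linked miRNAs were called lower and 2 higher, where 15.1% of all tested miRNAs were lower and 35.4% higher. At E17.5, 4 of the 11 were lower and 4 higher, where 10.2% of all were lower and 35.9% higher. The member that moved between the counts was miR-143-3p, which marks smooth muscle and fibroblasts (−0.18 at E16.5, limma adjusted p = 0.0466; 0.21 at E17.5, limma adjusted p = 0.0327), and miR-16-5p passed at E17.5 only (0.15 at E16.5, limma adjusted p = 0.0721; 0.25 at E17.5, limma adjusted p = 0.0167). In the contrast between the stage effects 0 of 11 passed in limma (2 of 11 had an unadjusted p under 0.05), so that none of these stage differences was shown.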

How the data were processed

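Total RNA with small RNA kept was labelled with Cy3 and hybridised to Agilent mouse miRNA arrays (8 samples). The deposited scanner files hold the background-subtracted fluorescence intensity of 56430 miRNA spots per array, made by the authors with Agilent Feature Extraction 11.5.1.1, per the file headers; probe positions are on mm9. The deposited value table repeats these intensities (within 0.02 for all spots above 0) and served as an alternative.

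Outlier spots were dropped (2.84% to 6.03% per array) and spots of a probe averaged; each array was scaled to its 75th percentile over the 474 probes with detection everywhere, values under a floor (−4.24 on the log2 scale) were raised to it, and log2 was taken. The brightest probe stood for a miRNA. limma 3.58.1 (R 4.3.3) fitted 4 group means (eBayes with a trend; 4 residual degrees of freedom), with Benjamini-Hochberg adjustment over 384 miRNAs per contrast at 0.05. Levels at the floor understate the spread. Dim miRNAs and within-array ratios were compared with two-sided exact permutation tests, smallest p 0.0286, or 0.0556 within stage. Sequences came from RefSeq tables and the files (Biopython 1.88, Python 3.11.15; plots with matplotlib 3.10.9). The scripts were tested on simulated data. Alternatives were 5 other scalings, normexp, probe summary, filters, floor, replicate block and arrays left out.

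The members and miRNA lists were chosen with earlier results of these data known. Besides members, the text names other strands and miRNAs of the same seed, the 5 most similar profiles, neighbours in the order of change, and tested members of the p53-linked and epidermal lists. The array number limits precision; no dose or depth applies. The labels do not say that the replicate numbers pair the samples.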

Additional observations from a re-analysis of the deposited data

How the results depend on the processing

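miR-34a-5p kept its call as lower in cKO under all settings given above. Its change between the stages in cKO reversed to 0.10 with scaling on all probes and to 0.27 without scaling, and passed at −0.23 (1 member called) with normexp; its wild-type stage change passed at 0.68 without scaling and 0.31 with control-probe scaling (1 member called each). Counts over all miRNAs moved most. With scaling on all probes they were 49 for the stages combined, 22 for E16.5, 36 for E17.5, 0 for the difference between stages, 17 for the wild-type and 6 for the cKO stage change, with 4 p53-linked calls. Without scaling they were 63, 21, 51, 3, 192 and 28, again with 4 p53-linked calls; control-probe scaling gave 9, against 7 in the main analysis. Control-probe scaling gave 107 at E16.5 and 102 for the wild-type stage change, and normexp 163 for the latter. The fit of the compared groups alone gave 88 at E16.5, 4 for the wild-type and 57 for the cKO stage change. The count for the difference between stages, 6 in the main analysis, was 3 with median scaling, 21 with quantile scaling, 13 with normexp, 17 with the mean of probes, 1 with a floor 4 times lower, 3 with no filter (miRNAs above the floor on at least 1 array) and 1 with miRNAs detected on all 8 arrays.

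miR-34b-5p was detected on 6 arrays with any spot above background and on 0 with every spot; miR-34c-5p on 4 with any spot. In alternatives chosen after seeing the data, the signal difference of miR-34b-5p reversed to 1.34 when scaled and 0.0762 with the other probe, and that of miR-34c-5p to 1.87 when scaled and 0.408 with negative controls subtracted.

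Leaving out each array in turn, miR-34a-5p ran from −1.77 to −1.67 over both stages, from −1.61 to −1.59 at E16.5, from −1.95 to −1.73 at E17.5, from −0.35 to −0.13 for the difference between stages, from 0.05 to 0.09 for the wild-type and from −0.28 to −0.061 for the cKO stage change (0 to 1 member called). Calls over all miRNAs ran from 183 to 229 over both stages, 109 (without replicate 1 of cKO at E16.5) to 181 at E16.5, 116 (without replicate 2 of wild type at E17.5) to 184 at E17.5, 4 to 39 for the difference between stages, 8 to 61 for the wild-type and 32 to 138 for the cKO stage change, and stayed at 7 in the p53-linked list. Relative to the epidermal miRNAs the ratio ran from 1.05 to 1.12, and relative to the mesenchymal ones from −2.08 to −1.97. The dim signals ran from −2.60 to −0.819 for miR-34b-5p, −0.836 to 0.424 for miR-34c-5p (reversed without replicate 1 of cKO at E16.5, and at 0.121 and 0.248 without replicate 1 of wild type at E16.5 or E17.5), 0.0678 to 0.933 for miR-34b-3p and 8.95 to 11.2 for miR-34a-3p.

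With the replicate number as a block miR-34a-5p had the same changes with limma adjusted p = 1.51e-04 for the stages combined, 5.89e-04 for E16.5 and 5.22e-04 for E17.5, and 218 miRNAs were called against 231. Arrays of the same number correlated in their deviations from the group means at r = −0.144 to 0.275, above 0.1 for 5 of 6 pairs of groups and below 0 for wild type and cKO at E16.5; pairing, which required over 0.1 for every pair, was thus not taken as given, and it was not shown to be absent. Signals under about the lowest detected probe of an array (13.7 to 24.3) limit what can be said of miR-34b and miR-34c.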
